A study of Mus musculus with 10 samples.

Results

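Leukocyte and inflammation miRNAs were followed in small RNA sequencing of hearts from male C57Bl6N mice harvested 1 week after transverse aortic constriction, an operation that narrows the aorta and loads the left ventricle with pressure. The 10 mature miRNAs chosen by name were mmu-miR-142a-3p and mmu-miR-142a-5p, mmu-miR-223-3p and mmu-miR-223-5p, mmu-miR-342-3p and mmu-miR-342-5p, mmu-miR-150-5p, mmu-miR-146a-5p, mmu-miR-155-5p and mmu-miR-147-3p, written below without the species prefix. They are 10 of the 1139 miRNAs in the deposited tables, and all 10 passed the low-count filter that kept 457 miRNAs for testing. The groups, by the sample titles, were libraries of CITED4 knockout hearts (n = 5) and of floxed control hearts (n = 5), in which the gene carries recombination sites and is intact. All 10 libraries came from operated hearts, so every value describes the pressure-loaded heart. The labels name neither the promoter behind the recombinase nor the cells in which CITED4 was removed, and they give no age. The labels do not tie libraries to animals, so n counts libraries throughout. The p-values therefore reflect library-to-library spread, which may be technical.

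A miRNA is cut from a hairpin whose arms, called 5p and 3p, can each be loaded into a silencing complex, where the seed near the 5′ end pairs with target messenger RNAs. miR-142a is made throughout the blood lineages, miR-223 mainly in neutrophils, monocytes and their precursors, and miR-150 in mature B and T lymphocytes. miR-342 is encoded in an intron of Evl and is found in lymphocytes and other leukocytes. miR-146a and miR-155 are induced by inflammatory signalling: miR-146a restrains NF-κB signalling through Traf6 and Irak1, and miR-155 promotes immune activation, in part by repressing Socs1. miR-147 is induced in mouse macrophages by ligands of Toll-like receptors. In a heart under load these miRNAs are commonly read as signs of infiltrating and resident leukocytes, although heart cells can make several of them.

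Mature sequences were taken from RefSeq (GRCm38.p6), which matched 8 of the 10 by name. They are shown because the 8 carry 8 distinct seeds, so that none of them shares a seed with another of the 8, and arms of the same hairpin are different molecules. Capitals mark the seed, bases 2 to 8, written 5′ to 3′.
miR-142a-5p: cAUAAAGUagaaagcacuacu
miR-142a-3p: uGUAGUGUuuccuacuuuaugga
miR-223-5p: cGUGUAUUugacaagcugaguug
miR-223-3p: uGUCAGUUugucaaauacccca
miR-342-5p: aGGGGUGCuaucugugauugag
miR-342-3p: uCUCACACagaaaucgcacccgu
miR-146a-5p: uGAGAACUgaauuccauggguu
miR-155-5p: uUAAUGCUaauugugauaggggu
miR-150-5p and miR-147-3p are named only.

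The hairpins of miR-142a and miR-223 are printed whole, since the ratio between their arms is described below without a test, with the mature arms in capitals. The miR-142a hairpin (chr11:87756864-87756927, plus strand, GRCm38.p6) lies in an intron of the long noncoding RNA Mir142hg, and the annotated Mir142b hairpin overlaps it on the opposite strand. The strand setting of the authors' counting is not given in the sources used here, so reads of these hairpins may not be separable. The miR-223 hairpin (chrX:96242817-96242926, plus strand) lies in an exon of the noncoding transcript F630028O10Rik.
Mir142 hairpin: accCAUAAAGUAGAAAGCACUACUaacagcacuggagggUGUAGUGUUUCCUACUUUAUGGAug
Mir223 hairpin: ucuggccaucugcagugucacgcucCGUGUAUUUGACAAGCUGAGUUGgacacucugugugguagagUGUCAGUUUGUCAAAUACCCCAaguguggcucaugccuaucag
The other hairpins lie on chromosome 7 (miR-150), chromosome 11 (miR-146a), chromosome 16 (miR-155, in an exon of Mir155hg), chromosome 12 (miR-342, in an intron of Evl) and chromosome 2 (miR-147, overlapping an exon of AA467197).

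Libraries held 8909932 to 18369483 counts in knockout hearts and 7526091 to 11608900 in control hearts. The 10 members took 0.214% ± 0.0259 of all counts in knockout hearts and 0.210% ± 0.0369 in control hearts (SD, n = 5 each), while the muscle miRNA miR-1a-3p alone took 24.8% to 35.5% in knockout libraries and 27.0% to 39.3% in control libraries. Levels are given as CPM, counts relative to library totals scaled with TMM factors. All 4 cardiomyocyte markers (miR-1a-3p, miR-133a-3p, miR-208a-3p and miR-499-5p) were detected in all 10 libraries, as the label of heart requires. These are whole-heart RNAs, in which fewer cells of a type and less of the RNA per cell cannot be told apart.

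No leukocyte or inflammation miRNA differed between genotypes past the test. In edgeR's quasi-likelihood test with Benjamini-Hochberg adjustment over 457 miRNAs, 0 of the 10 members passed an adjusted p of 0.05, where the background over all tested miRNAs was 0% higher and 0% lower in knockout, and the smallest adjusted p among members was 0.64. At an unadjusted p under 0.05 there was 1 member with a higher mean, miR-223-5p, and 0 with a lower mean, where 2.84% of all tested miRNAs were higher and 3.50% lower (6.35%, or 29 of 457, in either direction). No miRNA was called by DESeq2 (0 of 1105, with 45 at an unadjusted p under 0.05) or by limma-voom (0 of 457, with 23). Means were higher in knockout hearts for 5 members and lower for 5, with a median log2 fold change of 0.03, equal to the 0.03 of all tested miRNAs. In 0 of the 10 were all knockout libraries on one side of all control libraries, a pattern that 0% of tested miRNAs showed upward and 0.656% downward.

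**Figure D1:**
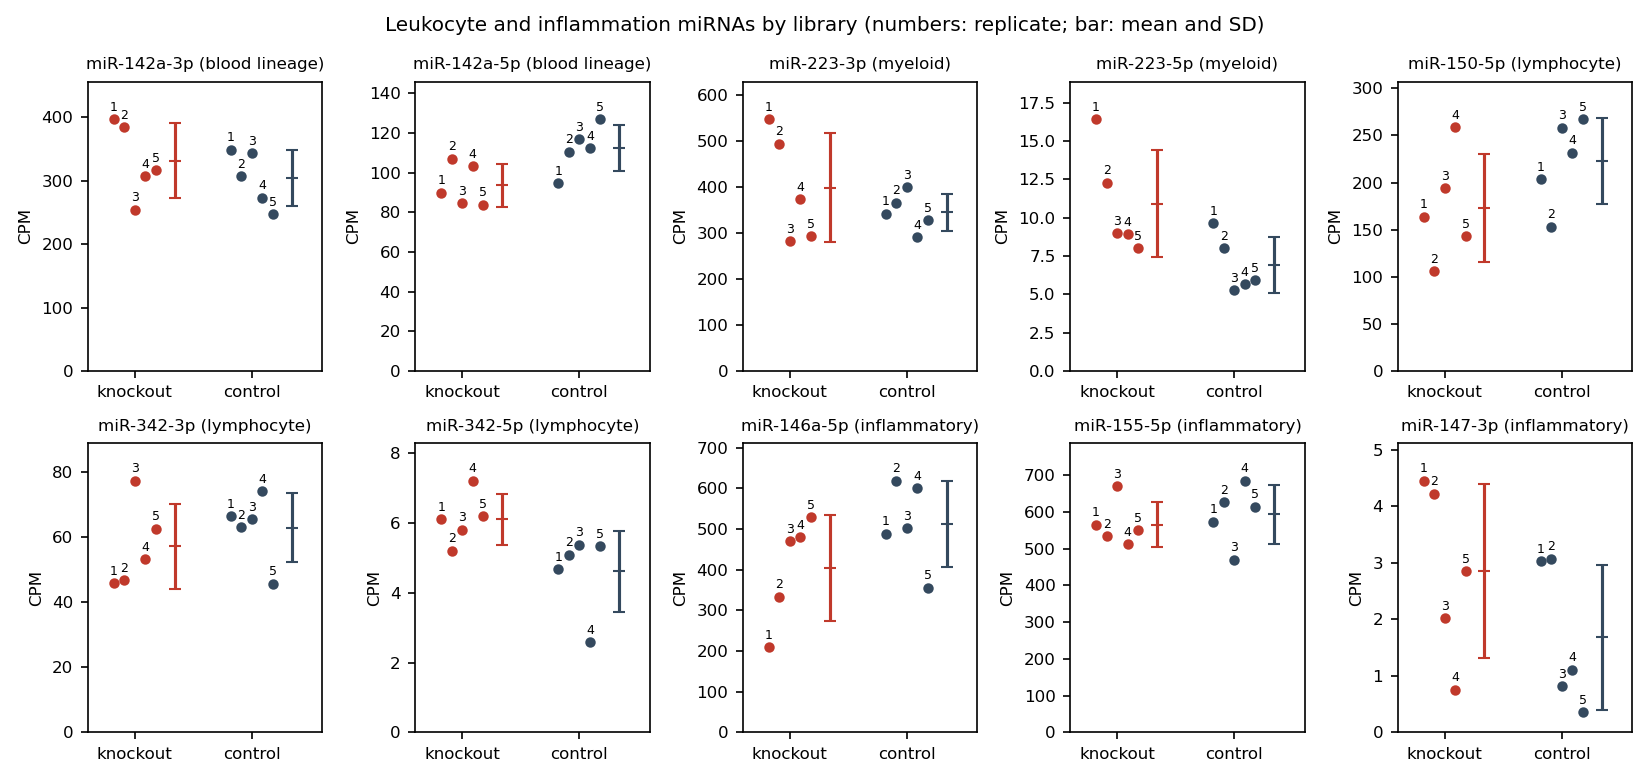
Level of each miRNA in CPM (linear axes from 0) in the 5 knockout and 5 control libraries; numbers give the replicate and bars the mean and SD. Knockout and control libraries overlap in every panel. miR-223-5p and miR-342-5p have all 5 knockout libraries above the control mean, and miR-142a-5p has none. Outside the members, miR-150-3p and miR-187-3p also have none, and the share over all tested miRNAs was not counted.

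The arms of miR-142a, the miRNA shared by all blood lineages, had means on opposite sides. miR-142a-3p was at 397, 384, 254, 308 and 316 CPM in knockout replicates 1 to 5 and at 349, 307, 344, 274 and 248 CPM in control replicates 1 to 5. Knockout replicates 1 and 2 were above every control and the rest lay within the control range. Its means were 332 ± 58.8 CPM in knockout hearts and 304 ± 43.9 CPM in control hearts (SD, n = 5 each), a log2 fold change of 0.13 ± 0.16 (SE; 95% interval from -0.21 to 0.46; adjusted p = 0.72 in edgeR's test).

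miR-142a-5p was at 89.9, 107, 84.5, 103 and 83.8 CPM in knockout hearts and at 94.8, 111, 117, 112 and 127 CPM in control hearts. Knockout replicates 1, 3 and 5 were below every control, and all 5 were below the control mean. How many tested miRNAs lie so was not counted. The means were 93.7 ± 10.8 CPM in knockout hearts and 112 ± 11.7 CPM in control hearts, a log2 fold change of -0.26 ± 0.13 (95% interval from -0.55 to 0.03; adjusted p = 0.64 in edgeR's test). The value depended on scaling: with library totals only the log2 fold change was -0.13. The unadjusted p in edgeR's test was then 0.49, against 0.072 with TMM factors. With an SD of 0.16 on the log2 scale within groups miR-142a-5p was the steadiest member, and 32 of the 457 tested miRNAs varied less.

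For miR-223, a miRNA that limits the maturation and activation of granulocytes, both arms had higher means in knockout hearts. The dominant arm, miR-223-3p, was at 546, 493, 282, 373 and 293 CPM in knockout replicates 1 to 5 and at 341, 366, 398, 290 and 327 CPM in control replicates 1 to 5. Knockout replicates 1 and 2 stood above all controls, and replicate 3 was below all of them. Its means were 398 ± 119 CPM in knockout hearts and 344 ± 40.7 CPM in control hearts, with a log2 fold change of 0.21 ± 0.19 (95% interval from -0.21 to 0.62; adjusted p = 0.66 in edgeR's test).

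The minor arm, miR-223-5p, was at 16.4, 12.3, 8.97, 8.92 and 8.004 CPM in knockout hearts and at 9.62, 8.0, 5.27, 5.68 and 5.94 CPM in control hearts. Knockout replicates 1 and 2 were above every control, and the lowest knockout library, replicate 5, was level with control replicate 2. These levels rest on at least 94 counts per knockout library and 45 to 111 counts per control library. The log2 fold change was 0.65 ± 0.25 (95% interval from 0.10 to 1.20). In edgeR's quasi-likelihood test its adjusted p was 0.64, and its unadjusted p 0.024. Over 20 alternative fits it stayed positive, from 0.49 to 0.82, with adjusted p from 0.18 to 0.99; without knockout replicate 1 it was 0.49 with an unadjusted p of 0.065 in the same test. Marker miRNAs of other cells moved with it: as deviations from the group means over 10 libraries, it varied against the summed red blood cell markers miR-144-3p, miR-144-5p and miR-486a-5p (r = -0.88, Spearman's rho = -0.68, and r = -0.76 without the 2 libraries farthest from the median) and with the summed fibroblast markers miR-199a-3p, miR-214-3p and miR-21a-5p (r = 0.67, rho = 0.50, 0.54 without 2). It also varied against the summed cardiomyocyte markers (r = -0.63, rho = -0.37, -0.52 without 2). Its relation to the summed endothelial markers miR-126a-3p and miR-126a-5p was weaker (r = -0.28, rho = -0.16, -0.09 without 2). The red blood cell sum is nearly all miR-486a-5p, a miRNA of blood and muscle, so in heart it is not specific to red blood cells. Between genotypes the mean of the red blood cell sum stood at 0.709 and that of the fibroblast sum at 1.44 of control in knockout hearts, with overlapping groups. The part of these markers in the value of miR-223-5p was not tested.

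**Figure D2:**
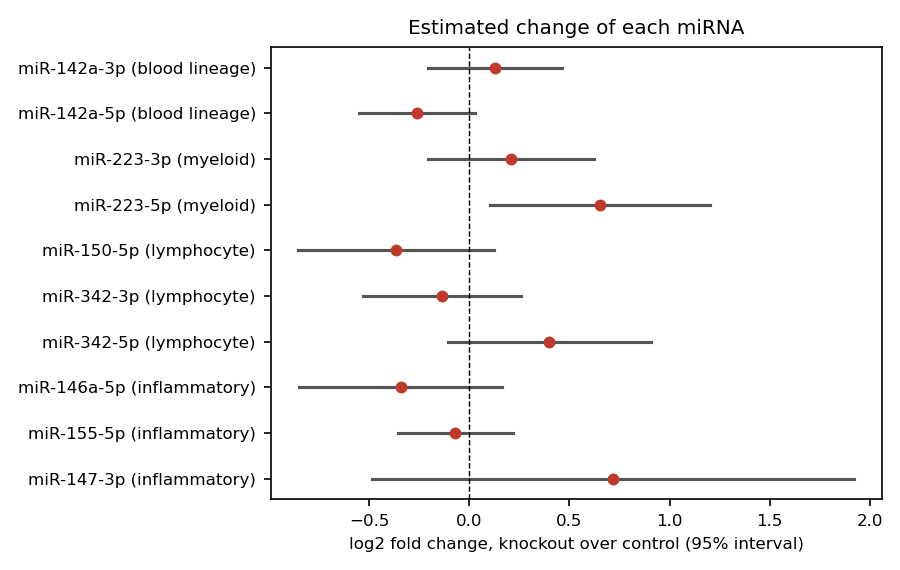
Log2 fold change of each miRNA, knockout over control, with its 95% interval from edgeR's quasi-likelihood fit (n = 5 libraries per group). The interval of miR-223-5p lies above 0, from 0.10 to 1.20, and those of the other 9 hold 0; that of miR-147-3p is the widest.

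Ratios of counts within a library do not depend on how libraries are scaled, and they were compared as a description without a test. The 5p arm of miR-142a stood at 0.226 to 0.336 of its 3p arm in knockout hearts and at 0.272 to 0.513 in control hearts. In 4 control libraries the ratio lay above the highest knockout library, and the mean log2 ratio was -1.81 ± 0.24 in knockout hearts and -1.43 ± 0.34 in control hearts (SD, n = 5 each). The 5p arm of miR-223 stood at 0.0239 to 0.0318 of its 3p arm in knockout hearts and at 0.0132 to 0.0282 in control hearts, with 4 control libraries below the lowest knockout library.

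Both relations combine in the ratio of miR-223-5p to miR-142a-5p. These members had the smallest unadjusted p in edgeR's test, 0.024 with a higher mean and 0.072 with a lower mean in knockout hearts. The size of the contrast is therefore partly by choice, and how often other pairs of tested miRNAs differ as much was not examined. The ratio adds no support beyond the values of its members. It was 0.183, 0.115, 0.106, 0.0864 and 0.0955 in knockout replicates 1 to 5 and 0.101, 0.0724, 0.0450, 0.0505 and 0.0468 in control replicates 1 to 5. In 4 control libraries it lay below the lowest knockout library, and control replicate 1 lay within the knockout range. The mean log2 ratios, -3.15 ± 0.42 in knockout hearts and -4.06 ± 0.50 in control hearts, differed by 0.91, and by 0.74 to 1.1 with 1 library left out. Between the 3p arms the same comparison gave no such contrast: miR-223-3p stood at 0.927 to 1.38 of miR-142a-3p in knockout hearts and at 0.978 to 1.32 in control hearts.

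**Figure D3:**
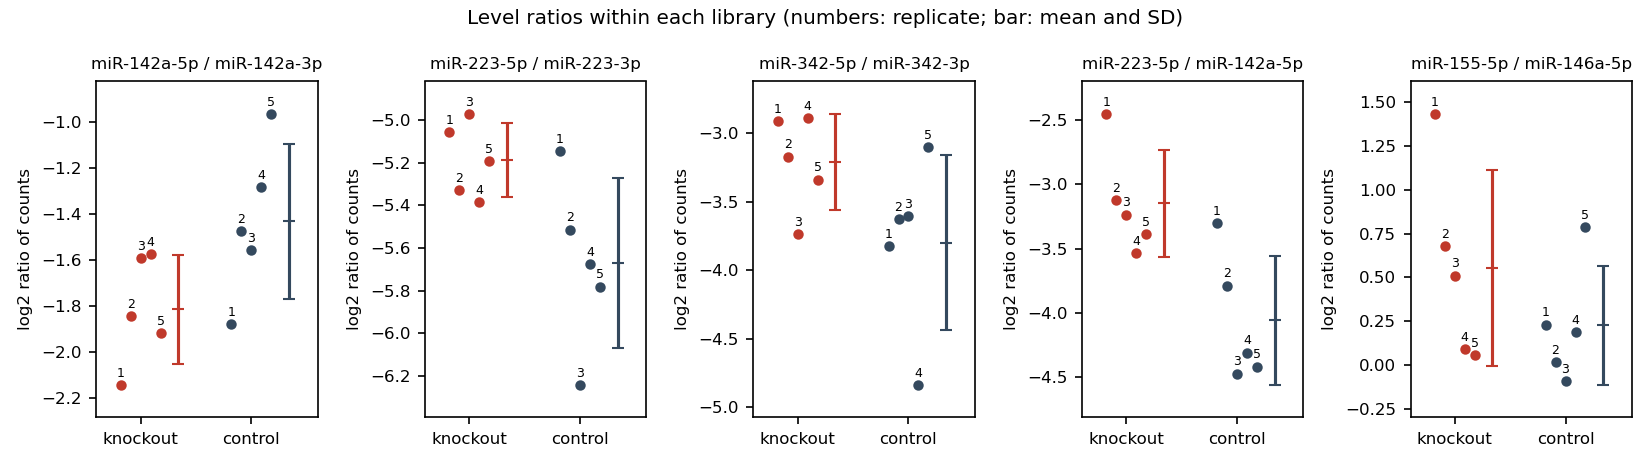
Log2 ratio of the counts of miRNA pairs within each library, for the arms of miR-142a, miR-223 and miR-342, for miR-223-5p over miR-142a-5p and for miR-155-5p over miR-146a-5p; numbers give the replicate and bars the mean and SD of 5 libraries. The ratio of miR-223-5p to miR-142a-5p averages -3.15 in knockout and -4.06 in control libraries, and the groups overlap in each panel.

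Among lymphocyte miRNAs, miR-150-5p, which limits the transcription factor c-Myb in maturing lymphocytes, had a lower mean in knockout hearts. It was at 164, 106, 194, 259 and 143 CPM in knockout replicates 1 to 5 and at 204, 153, 258, 232 and 267 CPM in control replicates 1 to 5. Knockout replicates 2 and 5 were below every control, while knockout replicate 4 was as high as the upper controls. The means were 173 ± 57.7 CPM in knockout hearts and 222.8 ± 46.2 CPM in control hearts, a log2 fold change of -0.36 ± 0.23 (95% interval from -0.85 to 0.13; adjusted p = 0.64 in edgeR's test). Single libraries moved this value both ways: the log2 fold change was -0.20 without knockout replicate 2 (unadjusted p of 0.35 in the same test) and -0.54 without knockout replicate 4 (unadjusted p of 0.028).

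miR-342-3p, the main arm of the Evl miRNA, was at 45.9, 46.9, 77.3, 53.3 and 62.7 CPM in knockout hearts and at 66.4, 63.0, 65.5, 74.2 and 45.7 CPM in control hearts, and the groups overlapped across their ranges. Its log2 fold change was -0.14 ± 0.18 (95% interval from -0.53 to 0.26; adjusted p = 0.73 in edgeR's test). The minor arm miR-342-5p was at 6.10, 5.21, 5.81, 7.21 and 6.19 CPM in knockout hearts and at 4.68, 5.10, 5.38, 2.59 and 5.33 CPM in control hearts. Knockout replicates 1, 3, 4 and 5 were above every control and knockout replicate 2 lay among them. Its log2 fold change was 0.40 ± 0.24 (95% interval from -0.11 to 0.91; adjusted p = 0.64 in edgeR's test), on 21 to 113 counts per library. Without control replicate 4 it was 0.27, with an unadjusted p of 0.24 in the same test. The 5p arm stood at 0.0751 to 0.135 of the 3p arm in knockout hearts and at 0.0349 to 0.117 in control hearts. The mean log2 ratios differed by 0.59, and by 0.33 without control replicate 4.

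miR-155-5p was the most abundant member in both groups. It was at 565, 533, 669, 512 and 550 CPM in knockout hearts and at 573, 626, 470, 685 and 614 CPM in control hearts, so that every knockout library lay within the control range. The means were 566 ± 61.2 CPM in knockout hearts and 594 ± 79.8 CPM in control hearts, with a log2 fold change of -0.07 ± 0.13 (95% interval from -0.36 to 0.22; adjusted p = 0.81 in edgeR's test). Its sign turned, to 0.056, when libraries were scaled by their totals alone, which moved the median of all tested miRNAs to 0.14, against 0.03 with TMM factors.

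miR-146a-5p was at 209, 334, 470, 481 and 529 CPM in knockout hearts and at 488, 619, 502, 601 and 356 CPM in control hearts. Knockout replicates 1 and 2 were below every control, and the other 3 lay within the control range. The means were 404 ± 131 CPM in knockout hearts and 513 ± 105 CPM in control hearts, a log2 fold change of -0.34 ± 0.24 (95% interval from -0.85 to 0.16; adjusted p = 0.64 in edgeR's test). Without knockout replicate 1 the log2 fold change was -0.15, with an unadjusted p of 0.44 in the same test. The same knockout libraries, 1 and 2, had the highest miR-223-3p. The ratio of miR-155-5p to miR-146a-5p was 2.70 in knockout replicate 1 and 1.04 to 1.599 in the other knockout hearts, against 0.938 to 1.73 in control hearts.

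Of all tested miRNAs whose sequence was at hand, miR-146b-5p alone shared a seed with a member, that of miR-146a-5p. Its sequence, from RefSeq on chromosome 19, is shown for comparison, with the seed in capitals.
miR-146b-5p: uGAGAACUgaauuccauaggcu
miR-146b-5p was at 86.5 ± 20.2 CPM in knockout hearts and 78.2 ± 24.2 CPM in control hearts (SD, n = 5 each), with a log2 fold change of 0.14 ± 0.23 (adjusted p = 0.78 in edgeR's test).

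miR-147-3p was the rarest and most variable member, at 4.45, 4.22, 2.02, 0.76 and 2.85 CPM in knockout hearts and 3.03, 3.08, 0.82, 1.11 and 0.36 CPM in control hearts. Its counts were 54, 43, 32, 8 and 52 in knockout libraries and 35, 35, 7, 9 and 3 in control libraries. High and low libraries occurred in both groups. Its log2 fold change was 0.72 ± 0.56 (95% interval from -0.48 to 1.92; adjusted p = 0.64 in edgeR's test), and 97.4% of tested miRNAs varied less within groups.

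Each member was set against the summed markers of 4 other cell types as within-genotype deviations over the 10 libraries, 40 relations in all, as a description without p, since libraries, depth and scaling are shared. Those named here were picked for their size, so they are large partly by choice. Levels of miR-147-3p and miR-150-5p went with those of fibroblast marker miRNAs in opposite directions (r = 0.94 and -0.85, rho = 0.94 and -0.90, 0.91 and -0.92 without the 2 libraries farthest from the median). The summed level of the 3 fibroblast markers (miR-199a-3p, miR-214-3p and miR-21a-5p, all detected in every library) ran from 52018 to 131309 CPM in knockout hearts and from 38277 to 107618 CPM in control hearts. Most of it was miR-21a-5p, at a mean of 77287 of 95364 CPM in knockout hearts and 52572 of 66362 CPM in control hearts, a miRNA that macrophages also make, so the sum is not specific to fibroblasts. Knockout replicate 4 and control replicates 3, 4 and 5 had the 4 lowest sums, at 52018, 39546, 45834 and 38277 CPM. These same 4 libraries had the 4 lowest levels of miR-147-3p, at most 1.11 CPM, and the 4 highest of miR-150-5p, at least 232 CPM. Outside the members and markers, the same 4 were also lowest for miR-34c-5p and miR-379-5p and highest for miR-29c-3p and miR-378b. The split is thus not particular to leukocyte or fibroblast miRNAs, and it is uneven over genotype. How many tested miRNAs show it was not counted, and its cause was not tested. Red blood cell markers, of which 3 of 4 were in the table, summed to 11532 to 25240 CPM in knockout hearts and 13759 to 33016 CPM in control hearts. Nearly all of this sum was miR-486a-5p, a miRNA of blood and muscle, at a mean of 16713 of 17210 CPM in knockout hearts and 23545 of 24266 CPM in control hearts. The sum is therefore not specific to red blood cells. miR-147-3p varied against this sum (r = -0.91, rho = -0.92, -0.91 without 2) and miR-150-5p with it (r = 0.71, rho = 0.81, 0.97 without 2). The 3p arms of miR-142a and miR-223 varied against the summed cardiomyocyte markers (r = -0.92 and -0.73, rho = -0.84 and -0.70, -0.95 and -0.80 without 2). This sum ran from 220406 to 386502 CPM in knockout hearts and from 242432 to 503939 CPM in control hearts and is nearly all miR-1a-3p. miR-147-3p varied against this sum too (r = -0.64, rho = -0.50, -0.64 without 2). The most abundant member, miR-155-5p, varied with it instead (r = 0.61, rho = 0.65, 0.54 without 2). miR-142a-3p also varied against the red blood cell sum (r = -0.60, rho = -0.66, -0.35 without 2). The part of these markers in the values of miR-147-3p, miR-150-5p, miR-142a-3p, miR-223-3p and miR-155-5p was not tested.

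**Figure D4:**
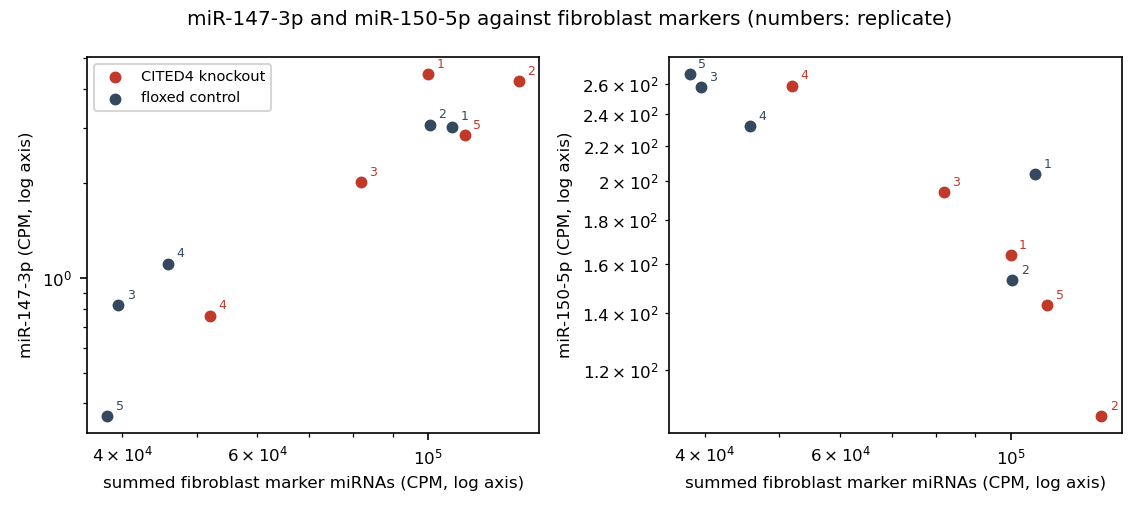
Level of miR-147-3p (left) and miR-150-5p (right) against the summed level of 3 fibroblast marker miRNAs in the same library, both in CPM on log axes, with knockout and control libraries in different colours and replicate numbers beside the points. Knockout replicate 4 and control replicates 3, 4 and 5 lie lowest for the markers and miR-147-3p and highest for miR-150-5p. These libraries also stand apart for miRNAs outside the members and markers.

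Grouped by lineage, summed levels overlapped between genotypes in each group. The miR-142a arms together were at 426 ± 64.2 CPM in knockout hearts and 416 ± 36.7 CPM in control hearts, and the miR-223 arms at 408 ± 122 CPM in knockout hearts and 351 ± 40.8 CPM in control hearts (SD, n = 5 each). The miRNAs grouped as lymphocyte, miR-150-5p and both arms of miR-342, summed to 236 ± 62.8 CPM in knockout hearts and 290.4 ± 43.7 CPM in control hearts, with 3 knockout libraries below every control. Of these, miR-342 is also found in other leukocytes. The inflammatory miRNAs summed to 973 ± 149 CPM in knockout hearts and 1109 ± 151 CPM in control hearts, with 2 knockout libraries below every control. Each sum is carried by its most abundant member, so these are the levels of miR-142a-3p, miR-223-3p, miR-150-5p and of miR-146a-5p with miR-155-5p seen together. All 10 members summed to between 1994 and 2106 CPM in knockout hearts and between 1995 and 2277 CPM in control hearts.

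The order of mean levels was the same in both groups: miR-155-5p, miR-146a-5p, miR-223-3p, miR-142a-3p, miR-150-5p, miR-142a-5p, miR-342-3p, miR-223-5p, miR-342-5p and miR-147-3p. In knockout hearts the means of miR-146a-5p (404 ± 131 CPM) and miR-223-3p (398 ± 119 CPM) differed by less than the larger of their SDs, as did those of miR-223-3p and miR-142a-3p. In control hearts the means of miR-155-5p and miR-146a-5p, and those of miR-223-3p and miR-142a-3p, also differed by less than the larger SD. All other neighbours in the order were further apart than that. Among all 1139 miRNAs, miR-155-5p ranked 69th by mean level in knockout hearts and 72nd in control hearts. Reads of different miRNAs are captured with different efficiency, so this order is one of read levels.

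Members varied between libraries of the same genotype as well as between genotypes, some together and some in opposite directions. Deviations from the group mean in log2 CPM were correlated over the 10 libraries for all 45 pairs, as a description without p, since the libraries, their depth and their scaling are shared. Their median Pearson r was -0.10, against -0.0050 over all pairs of tested miRNAs. The highest was that of the abundant arms of the myeloid and pan-blood miRNAs, miR-142a-3p with miR-223-3p (r = 0.81, Spearman's rho = 0.88, and r = 0.65 without the 2 libraries farthest from the median). The arms of miR-223 correlated at r = 0.66 (rho = 0.56, 0.45 without 2), while those of miR-142a did not vary together (r = -0.04, rho = -0.05, -0.26 without 2).

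The inflammatory miR-146a-5p varied with lymphocyte-linked miR-342-3p (r = 0.75, rho = 0.59, 0.52 without 2 libraries) and against miR-223-3p (r = -0.71, rho = -0.58, -0.48 without 2). miR-150-5p varied against miR-147-3p (r = -0.83, rho = -0.87, -0.80 without 2). It had little relation to miR-342-3p (r = 0.09, rho = -0.08, -0.06 without 2), which was grouped with it by lineage but is also found in other leukocytes. miR-146a-5p and miR-155-5p, both induced by inflammatory signals, had an r of 0.12 (rho = 0.04, 0.41 without 2).

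**Figure D5:**
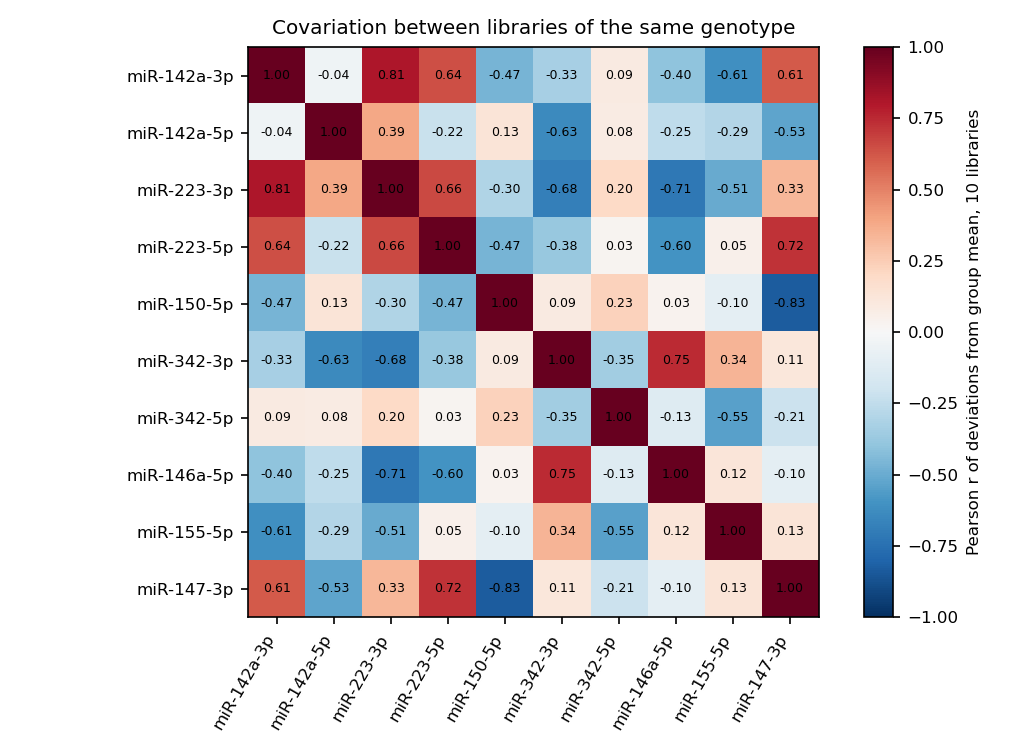
Pearson r between the miRNAs over 10 libraries (5 knockout, 5 control), each taken as the deviation of its log2 CPM from its group mean; red is positive and blue negative. miR-142a-3p and miR-223-3p have the highest r, 0.81, and miR-150-5p and miR-147-3p the lowest, -0.83.

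For a few members the most similar of the tested miRNAs outside the list were read from the same deviations, again over 10 libraries and without p. They were miR-22-5p and miR-27a-3p for miR-142a-5p (r = 0.83 each), and miR-744-5p and miR-654-3p for miR-223-3p (r = 0.87 and 0.85). For miR-150-5p they were miR-204-5p and miR-30c-2-3p (r = 0.95 and 0.91), and for miR-146a-5p miR-449a-5p and miR-335-3p (r = 0.80 and 0.76). As the highest of 447 values each, these are large partly by choice.

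A second list of 15 miRNAs linked to immune cells or inflammation was followed. It held other arms of member hairpins, miR-146a-3p, miR-155-3p, miR-150-3p and miR-147-5p, so it is not separate from the members. The rest were miR-146b-5p, miR-511-3p, miR-511-5p, miR-9-5p, miR-187-3p, miR-132-3p, miR-21a-5p, miR-125a-5p, miR-125b-5p, miR-181a-5p and miR-181b-5p. Of the 15, 11 were kept by the low-count filter. None passed in either direction (0 of 11; smallest adjusted p 0.64 in edgeR's test, and 0 at an unadjusted p under 0.05), with 7 higher and 4 lower means in knockout hearts and a median log2 fold change of 0.05. miR-181b-5p, of a family that tunes lymphocyte development, had the smallest unadjusted p. It was at 1089 ± 204 CPM in knockout hearts and 1302 ± 204 CPM in control hearts (SD, n = 5 each), a log2 fold change of -0.26 ± 0.16. miR-21a-5p, which is abundant in fibroblasts and macrophages, had a log2 fold change of 0.56 ± 0.35, and miR-187-3p, which dampens cytokine production in human monocytes, one of -0.37 ± 0.25. The macrophage miRNA miR-511-3p, encoded within the mannose receptor gene Mrc1, was at 102 ± 22.8 CPM in knockout hearts and 86.1 ± 23.7 CPM in control hearts, with a log2 fold change of 0.24 ± 0.21.

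The remaining arms of member hairpins were rare. miR-150-3p was at 1.07 ± 0.34 CPM in knockout hearts and 1.55 ± 0.69 CPM in control hearts, a log2 fold change of -0.49 ± 0.40 (adjusted p = 0.64 in edgeR's test), on the same side as miR-150-5p. miR-147-5p, not tested for its low counts, had 51, 43, 8, 3 and 30 counts in knockout libraries and 25, 8, 1, 2 and 0 in control libraries. Knockout replicate 4 and control replicates 3, 4 and 5, the lowest for miR-147-3p, were also the lowest for its 5p arm. miR-146a-3p had 0 to 10 counts and miR-155-3p 0 to 3 counts per library, too few for a comparison.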

How the data were processed

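The small RNA libraries (NEXTflex kit, per the labels' protocols) were 5 of CITED4 knockout and 5 of floxed control hearts. The authors deposited raw read counts per mature miRNA and a second table of linear signal, in which each count is divided by 1 factor per library. In every library this factor equalled the DESeq2 size factor computed from the raw counts. The GRCm38 build, DESeq2, STAR, Bowtie and cutadapt 1.10 are listed, without roles, in the submitters' processing notes; neither molecular identifiers nor strand use is stated there. Counts were fitted with edgeR 4.0.16 (R 4.3.3) after filterByExpr, with TMM factors, genotype as the only term and an adjusted p threshold of 0.05. The SE is the log2 fold change divided by the square root of F, and log2 CPM used a prior count of 2. DESeq2 1.42.0, limma 3.58.1 (voom, sample weights, and log2 of the deposited signal with a pseudocount of 1 or 0.5), other scalings and filters, a replicate block and leaving out each library were alternatives; fits were tested on simulated data. Libraries of a group differed by 108 to 2075 chi-square per degree of freedom in control hearts and by 210 to 2287 in knockout hearts. None therefore repeated another and each counted once, which does not show that they came from separate animals. Intervals cover the spread between libraries only. The text names all 10 members, 15 further immune-linked miRNAs (values for other arms and the 3 smallest p, and for miR-511-3p and miR-146b-5p, chosen after their values were seen) and the 2 nearest miRNAs in covariation for 4 members. Members and lists were chosen with earlier results of these data known. The replicate numbers, 1 to 5 in both groups, were not taken to pair libraries in the main fit, since the labels do not say what they mark. Same-number deviations correlated at 0.45, 0.38, -0.08, 0.40 and -0.12 for replicates 1 to 5, which does not settle whether libraries were paired.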

Additional observations from a re-analysis of the deposited data

Results flagged for a closer look

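In 5 of 64 groups of 5 libraries (32 values in both genotypes), the gap of an extreme library to its nearest neighbour exceeded 0.71 of the group's range; chance alone gives about 1 in 20, or 3.2. For miR-342-5p, control replicate 4 was low at 2.59 CPM, the other controls lying between 4.68 and 5.38 CPM. In control replicate 2 the log2 ratio of miR-150-5p to miR-142a-5p was 0.47, against 1.04 to 1.14 in the others. Knockout replicate 2 had 0.49 CPM of miR-150-3p, against 1.14 to 1.39 CPM in the other knockouts, a level that rests on 5 counts. Knockout replicate 2 also had 7103 CPM of miR-125b-5p, against 5895 to 6180 CPM. The level of miR-9-5p was 450.2 CPM in control replicate 4 and 265 to 305 CPM in the other controls.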

How the results depend on the processing

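The count of 0 members, and of 0 miRNAs in all, past an adjusted p of 0.05 was the same in all 21 alternative fits, with a smallest adjusted p from 0.15 with the replicate block to 0.99 with DESeq2. Of 207 member values, 1 turned in direction, that of miR-155-5p at 0.056 with library totals only. With 1 library left out, the log2 fold change ran from 0.07 to 0.23 for miR-142a-3p, 0.09 to 0.33 for miR-223-3p, -0.54 to -0.20 for miR-150-5p, -0.44 to -0.15 for miR-146a-5p and -0.24 to -0.04 for miR-342-3p. The stricter filter kept 7 of the 10 members and left out miR-223-5p, miR-342-5p and miR-147-3p. The number of miRNAs at an unadjusted p under 0.05, 29 in the main test, became 99 with sample weights, 14 with library totals only, 72 with the replicate block, 102 of 1105 without a filter, 16 of 282 with the stricter filter and 45 of 1105 with DESeq2. It was 8, 13, 65 and 18 without knockout replicate 1, 2, 4 or 5, and 84, 16, 10 and 6 without control replicate 1, 3, 4 or 5. With the replicate block, miR-223-5p had a log2 fold change of 0.65 (adjusted p = 0.18, edgeR) and miR-150-5p one of -0.40 (adjusted p = 0.25, edgeR), and the block changed no call. The best match in the other genotype was the same-numbered library for 4 of 10. The mean difference in the log2 ratio of miR-223-3p to miR-142a-3p, 0.04, turned to -0.01 without knockout replicate 1 or control replicate 1, and that of miR-150-5p to miR-142a-5p, -0.14, to 0.07 without knockout replicate 2. The cause of these changes was not tested. Levels under 10 CPM rest on few counts, down to 3 for miR-147-3p.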
